A study of Mus musculus with 9 samples.

Results

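The genes described here encode the subunits of respiratory complex I, and were taken by symbol from the expression tables of fluorescent cells sorted from the amygdala and labelled as pyramidal neurons, a label that the marker levels given below bear out only in part. Every gene named Nduf with the series letter a, b, c, s or v and a number, Ndufab1 and every mitochondrial gene named mt-Nd with a number was a member, while the assembly factors of the Ndufaf series were left out. The mouse annotation holds 49 such genes. The table that compares balancing (BA) with avoiding (AV) mice lists 35 of them among 9872 genes, and the table that compares BA with approaching (AP) mice lists 41 among 11820. All 35 are also in the second table, 6 are in the second table only, and 8 are in neither.

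All mice were of the B6.Cg-Tg(Thy1-YFP)HJrs/J line. In this line the promoter of Thy1 drives yellow fluorescent protein in pyramidal neurons and, less, in some other neurons, and the labels name no drug treatment. The groups were defined by behaviour alone, in a task where reward and an aversive setting conflict, and the amygdala of each mouse was dissociated and sorted for fluorescent living cells a month later. Each library is 1 mouse. Data of 3 BA, 2 AV (replicates 1 and 3) and 3 AP mice were used, because the authors had removed an AV mouse as an outlier, and the same 3 BA mice serve in both comparisons. Values are normalized expression values, and the tables were normalized separately, so each group was compared with BA mice only inside its own table. Neither the age nor the sex of the mice is given in the sources used here.

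Complex I is the first enzyme of the mitochondrial respiratory chain. It oxidizes NADH, hands the electrons through a row of iron-sulfur clusters to ubiquinone, and pumps protons across the inner membrane. A matrix arm holds the redox centres and a membrane arm holds the pumps. Core subunits, which bacteria share, carry out the chemistry: those of the matrix arm are encoded in the nucleus and those of the membrane arm by mitochondrial DNA. Accessory subunits are all encoded in the nucleus, surround the core and are needed for its assembly and stability. Neurons rely on this enzyme for the ATP that restores ion gradients after firing.

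By role, the BA vs AV table lists all 7 nuclear core subunits, 25 accessory subunits and 1 of 7 mitochondrial core subunits, mt-Nd6. The BA vs AP table lists the same 7 nuclear core subunits, 30 accessory subunits and 2 mitochondrial ones, mt-Nd3 and mt-Nd6. The other mitochondrial subunits are not analysed here. The symbol rule also caught 2 genes that are no subunits in a strict sense: Ndufa4, whose product is now counted with cytochrome c oxidase (complex IV), and Ndufb4c, annotated as a processed pseudogene. Both are given apart. The listed members lie on 17 chromosomes, the mitochondrial one included.

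Promoters of the members were read to see what the genes share in sequence besides their symbols. RefSeq windows of GRCm38.p6, from 250 bases before to 50 bases after a start site, were found for 34 listed nuclear members. A YY1-type motif, AAGATGGC, was searched on both strands and stood in the windows of 7 members (20.6%), in comparison to 3.19% of 27025 genes with a window and 5.38% of those listed in either table. All 7 matches were on the gene's own strand, between 23 and 39 bases downstream of the start site, and the ATG inside each was the annotated start codon of the gene. None of the 7 overlapped a match to another motif searched. They are shown because they are the sequence feature that the members' promoters share most often relative to all genes, with the motif in capitals.

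Ndufa3: ccaagaacAAGATGGCcgggagtaagta
Ndufa9: tgtgggagAAGATGGCggccgccgtccg
Ndufb8: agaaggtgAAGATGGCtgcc
Ndufc1: tgcggaacAAGATGGCgccgtccgtagt
Ndufs4: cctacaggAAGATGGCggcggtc
Ndufs6: tcaccggcAAGATGGCggcggtgct
Ndufs7: ccgaggccAAGATGGCggcgctggcggg

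On GRCm38.p6 these sites lie at chr7:3617387-3617414 on the plus strand for Ndufa3, at chr6:126849096-126849123 on the minus strand for Ndufa9 and at chr19:44555393-44555412 on the minus strand for Ndufb8. Those of Ndufc1, Ndufs4 and Ndufs6 lie on the minus strand at chr3:51408914-51408941, chr13:114388045-114388067 and chr13:73328433-73328457. That of Ndufs7 lies at chr10:80249465-80249492 on the plus strand. Each site spans the end of the 5′ untranslated region and the first codons. Other motifs, also searched on both strands, were the NRF1 palindrome (1 of 34 members, 1.07% of all genes), the ETS motif CCGGAAG (4 members, 9.93%), the cAMP response element TGACGTCA (3 members, 2.03%), the GC box GGGCGG (15 members, 38.2%), CCAAT (10 members, 41.1%) and TATAAA (4 members, 15.7%). Among the genes listed in either table, these shares were 2.41%, 19.9%, 3.51%, 68.6%, 43.2% and 8.96%, in the same order. The ETS motif, GC box and CCAAT were thus less frequent in members (11.8%, 44.1% and 29.4%) than in listed genes. NRF1, the cAMP response element and TATAAA were more frequent (2.94%, 8.82% and 11.8%), each in few members. A match describes letters in a window, and binding of a factor was not measured.

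In AV mice complex I genes were mostly higher than in BA mice. Of 35 members, 33 had a positive log2 fold change, and 14 (40.0%) rose at a Benjamini-Hochberg adjusted p under 0.05 in limma, fitted over the whole table. None fell at that threshold. Among all 9872 genes, 13.6% were called higher and 16.2% lower. The members' median log2 fold change was 0.72, that of all genes -0.03. Values of the AV mice lay above those of every BA mouse for 24 members, 68.6% of them, and this was so for 27.7% of all genes. In bulk samples of sorted cells, fewer cells of a type and less RNA per cell cannot be told apart. The study itself had drawn complex I genes from these same mice, so the direction is not independent evidence.

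**Figure D1:**
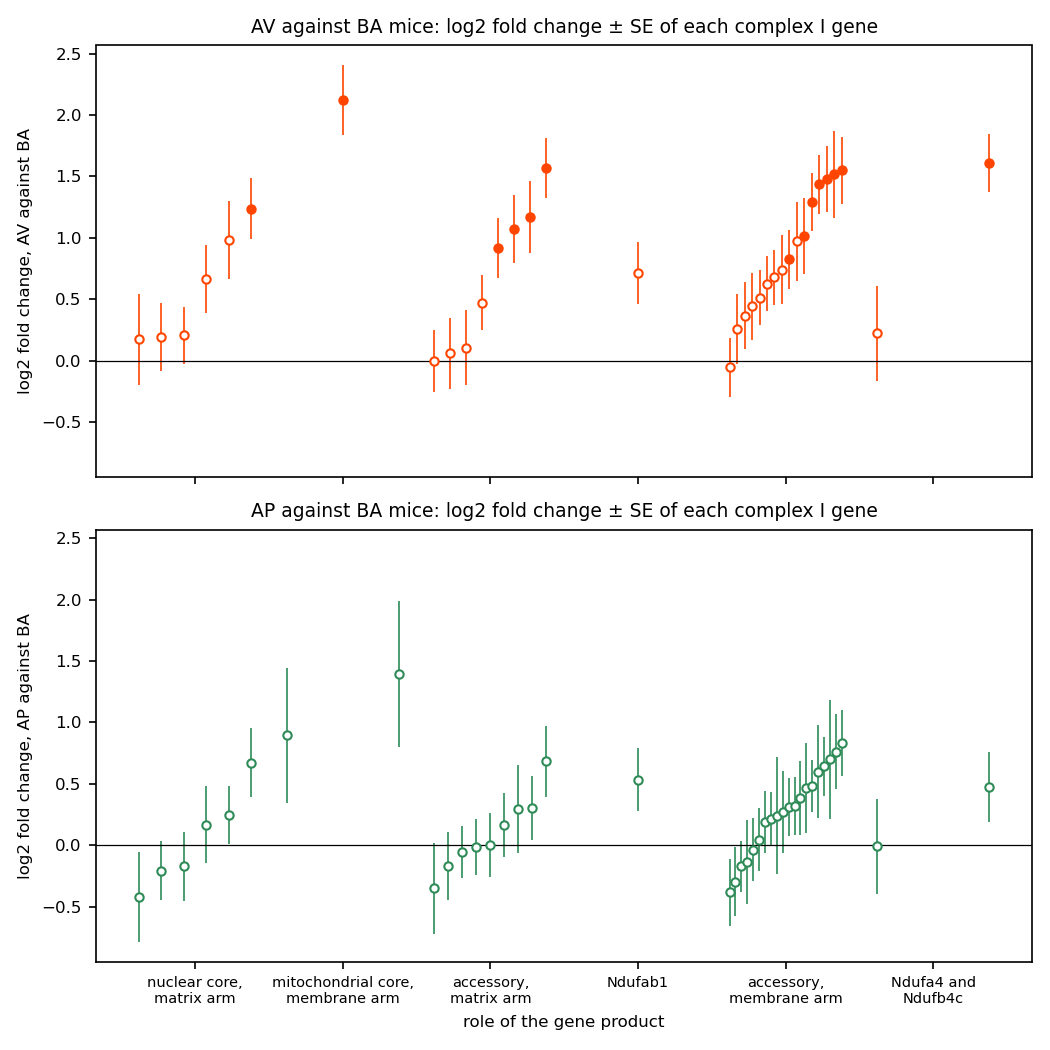
Log2 fold change against BA mice (y axis) with its SE as a bar, for each complex I gene but 1 core subunit, by role (x axis), for AV mice above and AP mice below. Filled points passed an adjusted p under 0.05: there are 14 for AV mice, with mt-Nd6 highest at 2.12, and none for AP mice.

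The nuclear core subunits moved unequally, and 1 of the 7 passed the test (14.3%, beside 13.6% of all genes called higher). This was Ndufv2, which carries an iron-sulfur cluster beside the NADH site. Its values were 157, 110.2 and 128 in BA mice and 339 and 279.7 in AV mice. The groups did not overlap, and the log2 fold change was 1.24 ± 0.25 (SE; 3 BA and 2 AV mice; limma adjusted p = 0.0124), or 2.36-fold. Without BA replicate 2 the call was lost, with an adjusted p of 0.0536.

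Ndufs8, a ferredoxin-like subunit with iron-sulfur clusters, had values of 81.0, 40.7 and 62.2 in BA mice and of 121 and 114 in AV mice. Both AV mice were above all BA mice, but the log2 fold change of 0.98 ± 0.32 missed the threshold (adjusted p = 0.0567). Ndufs3, which helps to join the redox chain to the quinone module, had values of 112, 69.0 and 78.2 in BA mice and of 125 and 145 in AV mice. Its change on the log2 scale was 0.66 ± 0.28 (adjusted p = 0.111), with no overlap of the groups.

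Another 3 nuclear core subunits, Ndufv1, Ndufs1 and Ndufs7, overlapped between the groups. Ndufv1, which binds FMN and takes the electrons from NADH, had values of 212, 150.4 and 128 in BA mice and of 127 and 257 in AV mice. The AV mice thus held both the lowest and the highest value of this gene, and the log2 fold change of 0.18 ± 0.37 (adjusted p = 0.748) became -0.33 without AV replicate 3. Ndufs1, the large subunit with several iron-sulfur clusters, had 260.1, 256 and 333 in BA mice and 328 and 321 in AV mice. Its difference was 0.21 ± 0.23 on the log2 scale (adjusted p = 0.522). Ndufs7, which holds the last cluster before ubiquinone, had 183, 160.0 and 113 in BA mice and 156 and 186 in AV mice, with a log2 change of 0.19 ± 0.28 (adjusted p = 0.630). A missed threshold does not show that the levels were equal.

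The mitochondrial core subunit mt-Nd6 had the largest change of all members. It belongs to the membrane arm, near the junction with the matrix arm, and is encoded on the minus strand of the mitochondrial genome in GRCm38 (bases 13552 to 14070). Its values were 691, 784 and 1030 in BA mice and 4333 and 2971 in AV mice. The lowest AV value thus stood well above the highest BA value, and the log2 fold change was 2.12 ± 0.28 (adjusted p = 0.00409), or 4.35-fold. It stayed called under all 12 alternative fits, with log2 fold changes from 1.85 to 2.39. The last 14 bases of its exon overlap mt-Nd5 on the opposite strand.

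The other mitochondrial gene in that table is mt-Co3, a complex IV subunit, which rose by 2.49 ± 0.35 on the log2 scale (adjusted p = 0.005). Together both mitochondrial genes took between 0.217% and 0.444% of the summed values of a BA mouse and 2.30% and 1.67% of those of AV replicates 1 and 3. The nuclear members took between 0.0817% and 0.0917% of the summed values in BA mice and 0.174% and 0.163% in AV replicates 1 and 3.

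Accessory subunits, which are 25 of the 35 members, held 11 of the 14 calls. This was 44.0% of them, beside 13.6% of all genes called higher, with a median log2 fold change of 0.74. On the matrix arm 4 of 8 were called, on the membrane arm 7 of 16, and Ndufab1 was not. Ndufa12, a matrix arm subunit added late in assembly, led. It had 66.5, 90.0 and 90.8 in BA mice and 234 and 255 in AV mice, a log2 change of 1.57 ± 0.24 (adjusted p = 0.0056). Also on the matrix arm, Ndufa2, Ndufv3 and Ndufa6 rose by 1.17, 1.07 and 0.92 on the log2 scale, the first of these with AV values of 105 and 167. All 3 calls were lost when BA replicates 1, 2 and 3 were left out in turn. Those of Ndufv3 and Ndufa6 were also lost without AV replicate 1, and that of Ndufa2 without AV replicate 3.

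On the membrane arm Ndufb9 showed the largest increase. This small protein binds the acyl carrier protein Ndufab1. Its values were 88.1, 99.1 and 99.2 in BA mice and 360.1 and 219 in AV mice, which differed from each other more than the BA mice did. The log2 fold change was 1.55 ± 0.27 (adjusted p = 0.00811). Reads of Ndufb9 can be shared with a gene model, Gm49356, that overlaps 201 exon bases on the same strand.

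Ndufc1, a short membrane subunit, had 53.2, 44.4 and 25.3 in BA mice and 133 and 97.3 in AV mice. Its change on the log2 scale was 1.52 ± 0.35 (adjusted p = 0.0206), and without BA replicate 2 its adjusted p was 0.0624. Ndufa8, on the intermembrane side, had 59.6, 61.7 and 40.5 in BA mice and 164 and 137 in AV mice, a change of 1.48 ± 0.27 (adjusted p = 0.00892). In both genes BA replicate 3 was the lowest of all mice, and the AV mice did not overlap the BA mice.

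Ndufb8, a subunit whose protein is widely used as a marker of assembled complex I, had 82.6, 118 and 104 in BA mice and 262 and 285 in AV mice. Its change on the log2 scale was 1.44 ± 0.24 (adjusted p = 0.00715), and 134 exon bases are shared with Gm20538 on the same strand. Ndufa3 had 74.7, 87.1 and 63.8 in BA mice and 174 and 195 in AV mice, a change of 1.29 ± 0.23 (adjusted p = 0.00898). Of the remaining calls on this arm, Ndufa13 rose by 1.01 ± 0.31 (adjusted p = 0.0487) and Ndufa10 by 0.83 ± 0.24 (adjusted p = 0.040) on the log2 scale. The call of Ndufa13 was lost under 8 of 12 alternative fits, and 375 of its exon bases lie opposite to Tssk6. The call of Ndufa10 was lost under 6.

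**Figure D2:**
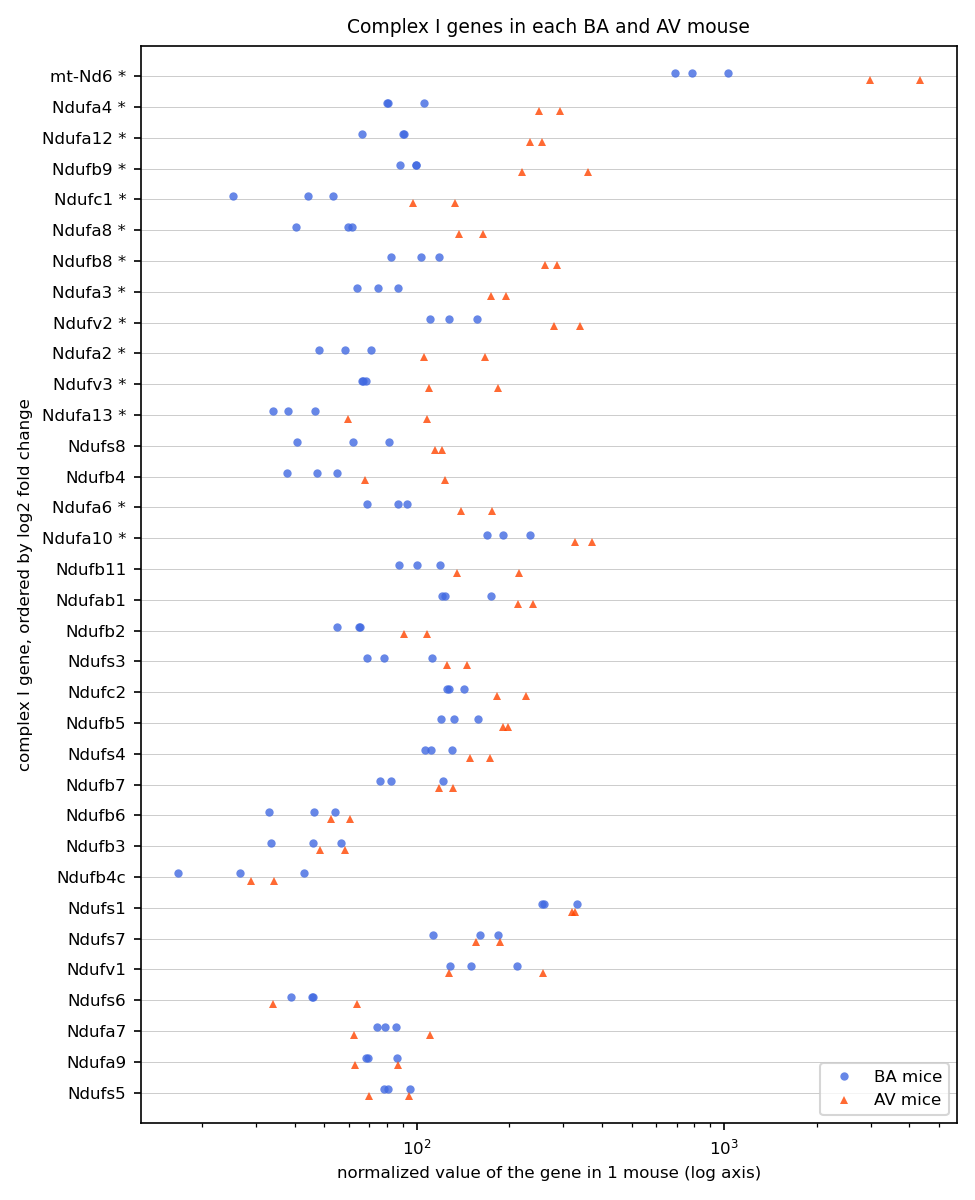
Normalized value (x axis, log scale) of 34 complex I genes in each BA mouse (circles) and AV mouse (triangles), ordered by log2 fold change, with called genes marked by an asterisk. For 23 of these genes both triangles lie right of all circles, and for Ndufa9, near the lower end, they lie on both sides of the circles.

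At the other end, 3 accessory subunits had log2 fold changes near 0. Ndufs5, a protein of the intermembrane side, had 78.1, 80.7 and 94.9 in BA mice and 94.4 and 69.8 in AV mice, a log2 change of -0.05 ± 0.24 (adjusted p = 0.885). Ndufa9, which lies beside the ubiquinone site, had 68.2, 86.1 and 69.4 in BA mice and 87.2 and 62.9 in AV mice. Ndufa7 of the matrix arm had 74.0, 85.7 and 78.8 in BA mice and 62.3 and 110.1 in AV mice, a change of 0.06 ± 0.29 (adjusted p = 0.890). For all 3 the AV mice lay on either side of the BA mean, and their spread was wider than that of the BA mice. The signs of these genes turned with the scaling or with the mouse left out.

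The accessory subunits that remain did not pass the test. Their log2 fold changes ran from 0.10 in Ndufs6 to 0.97 in Ndufb4. Ndufab1, the mitochondrial acyl carrier protein that is bound to both arms, had a log2 fold change of 0.72 ± 0.25 (adjusted p = 0.0743), with no overlap between the groups. Ndufs4, an accessory subunit whose loss causes the mouse model of Leigh syndrome, had 0.47 ± 0.22 (adjusted p = 0.155). Ndufb11, Ndufb2 and Ndufc2 had 0.74, 0.68 and 0.63 with adjusted p of 0.0899, 0.0596 and 0.0752, and none of them overlapped between the groups.

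Of the genes caught by symbol only, Ndufa4 had 80.8, 80.0 and 105 in BA mice and 293 and 249.6 in AV mice. It rose by 1.61 ± 0.24 on the log2 scale (adjusted p = 0.00513), the second highest value among the members. The pseudogene Ndufb4c had 43.1, 26.6 and 16.7 in BA mice and 28.9 and 34.3 in AV mice, with a log2 change of 0.22 ± 0.39 (adjusted p = 0.694). Reads can be split between Ndufb4c and its parent Ndufb4, so both values are uncertain. Without the genes caught by symbol only, 13 of 33 members were called and the median was again 0.72.

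The members with the YY1-type motif did not stand together. Among those 7, Ndufc1, Ndufb8 and Ndufa3 were called, with log2 fold changes of 1.52, 1.44 and 1.29, while Ndufs4, Ndufs7, Ndufs6 and Ndufa9 had 0.47, 0.19, 0.10 and close to 0. Their median was 0.47, in comparison to 0.73 for the 22 nuclear members of that table whose windows lack the motif. The call was made for 3 of the 7 and for 8 of the 22, beside 13.6% of all genes called higher.

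Levels in BA mice also differed among members that build the same enzyme. Per kilobase of merged exons, the nuclear members of the BA vs AV table had a median value of 50.5 in BA mice, from 11.0 in Ndufb2 to 175 in Ndufc2, and mt-Nd6 had 1609. Merged exon lengths include alternative gene models, so a long model such as that of Ndufb2 lowers its value per kilobase. Across the 34 nuclear members, the log2 fold change and the log2 level in BA mice had a Pearson's r of -0.14, and the log2 exon length an r of -0.08. Over all genes of that table the same values were -0.28 and -0.09. The level in BA mice also enters the fold change, so a negative r with that level can arise from this alone. All are descriptions across genes measured in the same 5 libraries.

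The labelled cell type was checked against markers. Of 10 pyramidal neuron markers only Camk2a, Grin2b and Nrgn are listed in either table, while Slc17a7, Slc17a6, Neurod6, Tbr1, Thy1 and Rbfox3 are among those that are not. In the BA vs AV table the 3 summed to between 211 and 235 in BA mice and to 2492 and 3709 in AV replicates 1 and 3, and all 3 rose at an adjusted p under 0.05. All 6 oligodendrocyte markers are listed. They summed to between 179351 and 222221 in BA mice, 4.73% to 5.59% of all values, and to 51194 and 78859 in AV mice. Of the 6, 4 were called lower. The label of pyramidal neurons therefore goes against the data in part: in BA mice the oligodendrocyte markers had by far the higher level.

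Of the other cell types, 5 of 6 astrocyte markers summed to between 9017 and 14623 in BA mice and to 29033 and 56395 in AV mice, with 3 called higher. The 3 of 7 microglia markers listed summed to between 237 and 354 in BA mice and to 722 and 939 in AV mice, with 3 called higher. The 3 of 5 endothelial markers listed summed to between 266 and 393 and to 169 and 168, with 1 called lower, and no interneuron marker is listed. These levels move with the groups that differ in complex I genes, and their part in the result was not tested.

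**Figure D3:**
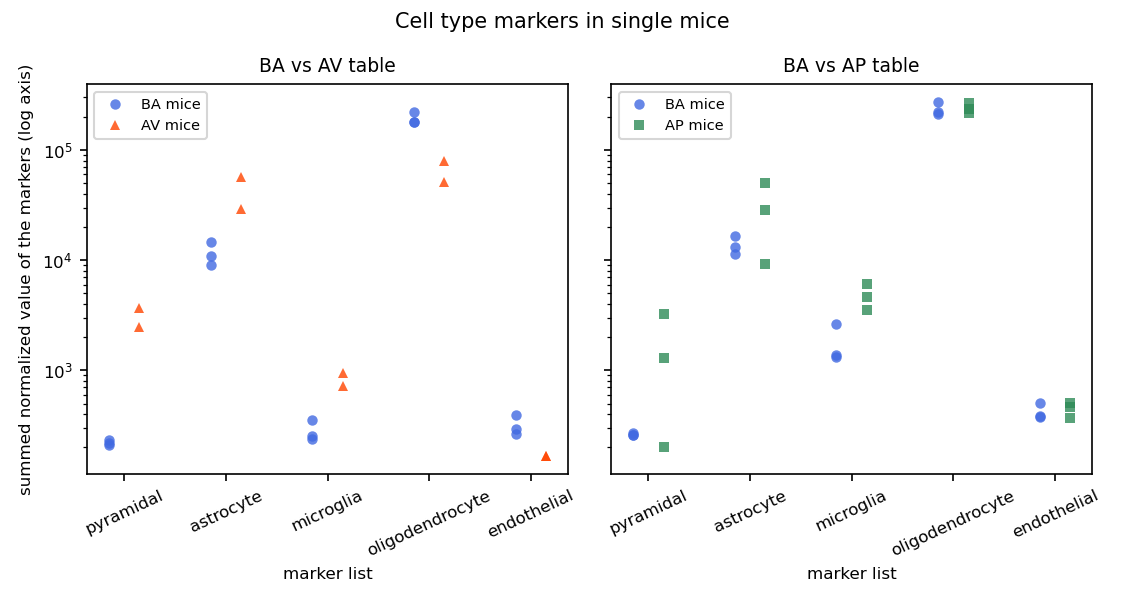
Summed normalized value (y axis, log scale) of the listed markers of 5 cell types (x axis) in each mouse, for the BA vs AV table on the left and the BA vs AP table on the right. Pyramidal neuron markers are higher in both AV mice and in 2 of 3 AP mice than in any BA mouse, and oligodendrocyte markers are lower in both AV mice than in any BA mouse.

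The other genes of the respiratory chain were collected as lists. Of 33 nuclear genes of complexes II to V listed in the BA vs AV table, 22 were called higher (66.7%, beside 13.6% of all genes) and none lower. Their median log2 fold change was 1.09, with values from 0.16 in Uqcrc2 to 1.75. The call was made for 1 of 4 genes of complex II, 5 of 7 of complex III, 7 of 8 of complex IV (with mt-Co3) and 10 of 15 of complex V. In complex II, Sdhd, a membrane anchor of succinate dehydrogenase, had the highest log2 fold change, 1.31 ± 0.30, and Sdhb the lowest, 0.54. In complex III the highest was Uqcrh with 1.27 ± 0.24, in complex IV the lowest was Cox5a with 0.51, and in complex V the range ran from Atp5f1 with 0.42 to Atp5k with 1.72 ± 0.21.

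Of 13 listed assembly factors of complex I, 2 were called higher (15.4%, beside 13.6% of all genes) and 1 lower (beside 16.2% of all genes). Their median log2 fold change was 0.20. Ndufaf5, which modifies Ndufs7 during assembly, rose by 1.28 ± 0.30 on the log2 scale (adjusted p = 0.021), from 30.6 ± 9.48 (SD, n = 3) to 73.1 ± 0.111 (SD, n = 2). Acad9, which acts in assembly of the membrane arm and is related to enzymes of fatty acid oxidation, fell on the log2 scale. Its change was -1.39 (limma adjusted p = 0.008), from 1642 ± 297.6 to 617 ± 18.9. An SD of 2 mice, as of the Ndufaf5 values 73.1 and 73.2, is no reliable measure of the spread between mice. Of 12 listed regulators of respiratory genes 3 were called lower (25%, beside 16.2% of all genes) and none higher. Their log2 fold changes were positive in 6 and negative in 6, with a median of -0.05. The lowest was Twnk, the mitochondrial DNA helicase, which fell by 1.50 (adjusted p = 0.005), and the highest was Ppargc1a, a coactivator of mitochondrial biogenesis, with 0.90 ± 0.45 (adjusted p = 0.172).

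The count of 14 calls fell when any 1 of the BA mice was left out, and so did the share of all genes called higher. Without BA replicates 1, 2 or 3 there were 9, 7 and 9 calls among the members, beside 7.92%, 7.13% and 8.75% of all genes. Without AV replicates 1 or 3 there were 12 and 13, beside 14.8% and 16.1%. When each mouse was scaled to the same summed value of nuclear genes, the median of all genes moved from -0.03 to 0.19, the members' median was 0.93 and 21 members were called, beside 19.2% of all genes called higher. Under that scaling 61.8% of the 3059 called genes were higher in AV mice, in comparison to 45.6% of 2934 with the authors' normalization.

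In AP mice no complex I gene passed the test. In limma 0 of 41 members had an adjusted p under 0.05, and 1 of 11820 genes did (0.00846%). Without adjustment, 7 members had a p under 0.05, all higher in AP mice, and 4.99% of all genes were higher at that level. The median log2 fold change was 0.24 for the members and -0.03 for all genes, and 28 members had a positive sign. The groups did not overlap for 3 members, Ndufa3, Ndufb8 and Ndufc2, all higher in AP mice, or 7.32% of members beside 5.64% of all genes. No member was lower in every AP mouse than in each BA mouse, and 6.45% of all genes were. With 3 mice a side and SEs between 0.21 and 0.59, a change of the median size could not be detected in single genes.

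The largest change belonged to the mitochondrial genes. mt-Nd3, a membrane arm subunit with a loop that shifts between the active and resting enzyme (bases 9459 to 9806 of the plus strand), had 807, 2119 and 1600 in BA mice and 1402, 6249 and 5699 in AP mice. AP replicate 1 lay among the BA mice and the other AP mice far above them, and the log2 fold change was 1.40 ± 0.59 (adjusted p = 0.637). mt-Nd6 had 801, 1070 and 1348 in BA mice and 736, 2858 and 3528 in AP mice. Again AP replicate 1 was the exception, here the lowest of all mice, and the log2 fold change was 0.89 ± 0.55 (adjusted p = 0.717). The 4 listed mitochondrial genes took between 0.290% and 0.558% of the summed values in BA mice, 0.383% in AP replicate 1 and 1.54% and 1.74% in AP replicates 2 and 3.

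Ndufa3 was the nuclear member with the largest increase. It had 91.5, 109.6 and 70.6 in BA mice and 129, 154 and 203 in AP mice, a log2 change of 0.83 ± 0.27 (unadjusted p = 0.0136, limma adjusted p = 0.478). Its AP mice lay above all BA mice. The other nuclear members with an unadjusted p under 0.05 in limma were Ndufa1, Ndufa12, Ndufs3, Ndufb8 and Ndufc2, with log2 fold changes of 0.76, 0.68, 0.67, 0.64 and 0.48.

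The lowest changes were those of Ndufv1, Ndufb6 and Ndufs6. Ndufv1 had 242, 189 and 150.3 in BA mice and 177, 198 and 80.9 in AP mice, a log2 change of -0.42 ± 0.37 (adjusted p = 0.777). Ndufb6, a small membrane arm subunit, had 65.9, 56.3 and 37.6 in BA mice and 32.5, 41.0 and 46.3 in AP mice, a change of -0.38 ± 0.28 (adjusted p = 0.738). Ndufs6, a zinc-binding subunit of the matrix arm, had 47.8, 53.2 and 53.5 in BA mice and 47.5, 62.9 and 21.5 in AP mice, with -0.35 ± 0.37 (adjusted p = 0.809), which became 0.086 without AP replicate 3. In Ndufv1 and Ndufs6 the low value came from AP replicate 3 alone, and the groups overlapped in all 3 genes.

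The core subunits of AP mice spread on both sides of 0. Ndufs3 had 128, 85.0 and 91.5 in BA mice and 119, 169.9 and 201 in AP mice, a log2 change of 0.67 ± 0.28 (adjusted p = 0.621). Ndufv2 had 183, 134 and 144 in BA mice and 149.8, 199.6 and 199 in AP mice, with 0.25 ± 0.24. Ndufs8 had 91.5, 55.3 and 71.9 in BA mice and 66.8, 119.6 and 64.7 in AP mice, with 0.17 ± 0.31. These 3 overlapped between the groups, AP replicate 1 lying inside the range of the BA mice each time.

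Ndufs7 had 224, 199 and 125 in BA mice and 134, 189.7 and 152 in AP mice, with a log2 fold change of -0.17 ± 0.28. Ndufs1 had 313, 314 and 387 in BA mice and 281, 365 and 241 in AP mice, with -0.21 ± 0.24. Both overlapped between the groups, and the adjusted p of the core subunits lay between 0.621 and 0.895. Of the genes caught by symbol only, Ndufa4 had 100.04, 109.6 and 115 in BA mice and 104, 210.3 and 156 in AP mice (0.48 ± 0.28), and Ndufb4c had 45.9, 30.7 and 17.8 in BA mice and 21.4, 43.6 and 26.6 in AP mice (-0.01 ± 0.39).

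**Figure D4:**
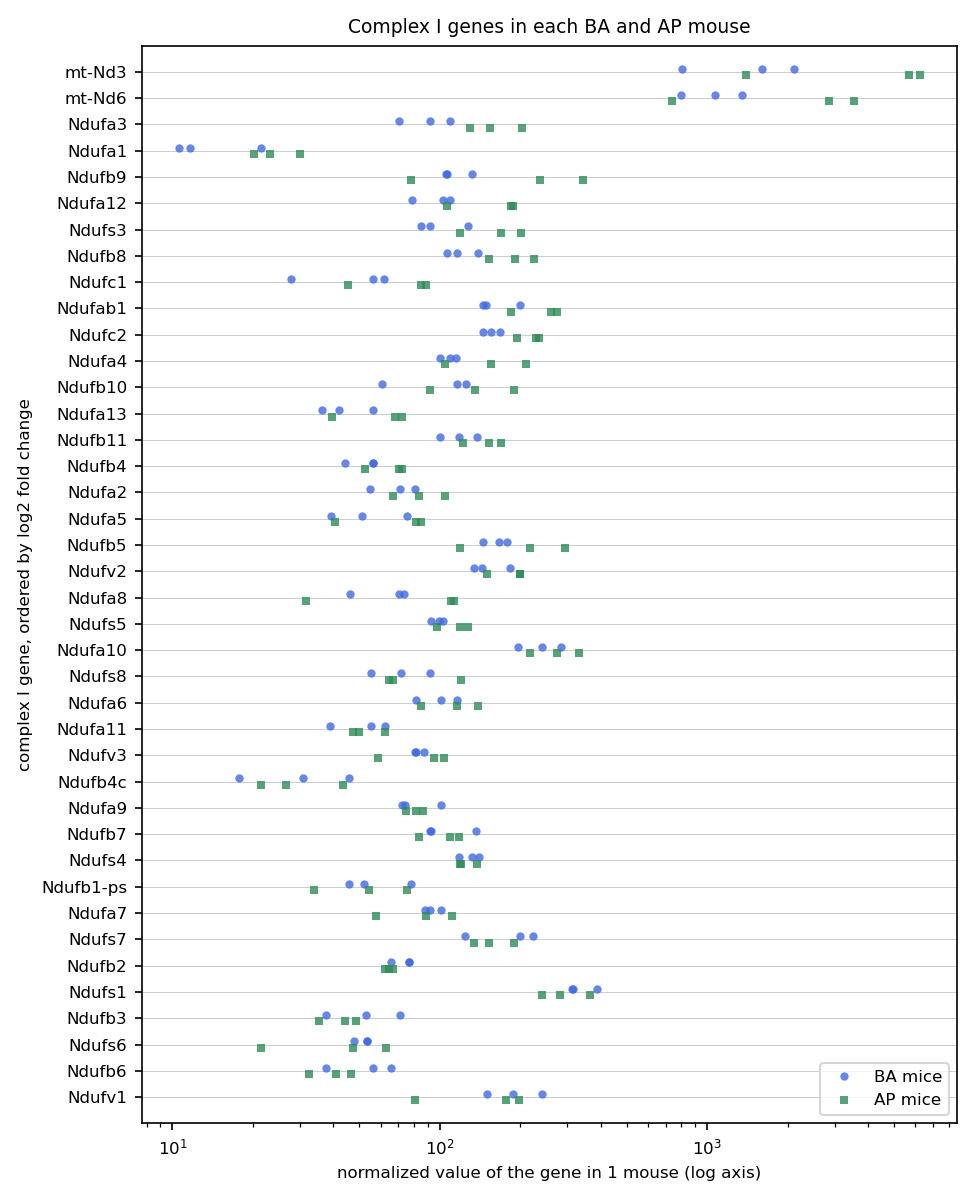
Normalized value (x axis, log scale) of 40 complex I genes in each BA mouse (circles) and AP mouse (squares), ordered by log2 fold change. No gene is marked as called, and for Ndufa3, Ndufb8 and Ndufc2 all squares lie right of the circles.

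The 6 members listed only in this table, besides mt-Nd3, were Ndufa1, Ndufa5, Ndufa11, Ndufb10 and Ndufb1-ps. Ndufa1, an X-linked membrane subunit, had the lowest level of all members, a mean of 14.5 for BA (SD 6.02, n = 3) and of 24.5 for AP mice (SD 5.08, n = 3). Ndufb10, Ndufa5 and Ndufa11 had log2 fold changes of 0.47, 0.29 and 0.04. Ndufb1-ps, the mouse gene of the Ndufb1 subunit that the annotation calls a non-coding gene of a shared promoter, had -0.14, and 147 of its exon bases lie opposite to Cpsf2.

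Single mice were then set against the mean of the BA mice, gene by gene. In the BA vs AV table, the median deviation of the 34 nuclear members on the log2 scale was 0.61 in AV replicate 1 and 0.69 in AV replicate 3, and between -0.06 and 0.06 in BA mice. Of these members, 31 and 32 were above the BA mean in the AV mice. In the BA vs AP table the median deviation of 39 nuclear members was -0.12 in AP replicate 1, 0.41 in AP replicate 2 and 0.28 in AP replicate 3, and between -0.13 and 0.07 in BA mice. The AP mice were thus unlike each other, with 11, 33 and 27 of 39 members above the BA mean.

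**Figure D5:**
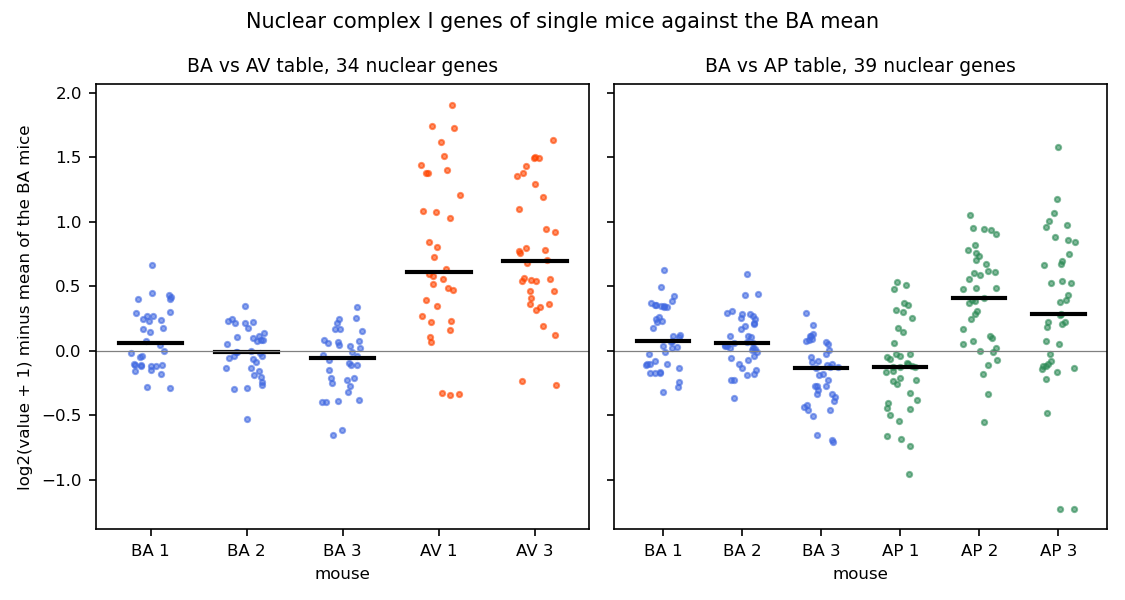
Deviation of log2(value + 1) from the mean of the BA mice (y axis) for each nuclear complex I gene (points) in each mouse (x axis), with black bars at the median over genes. The medians of both AV mice lie at 0.61 and 0.69, and that of AP replicate 1 lies at -0.12, near that of BA replicate 3 at -0.13.

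AP replicate 1, which lay at the level of the BA mice in complex I genes, did so in neuronal markers as well. Camk2a, Grin2b and Nrgn summed to between 261 and 268 in BA mice, to 202 in AP replicate 1 and to 1284 and 3245 in AP replicates 2 and 3. Astrocyte markers (6 of 6 listed) summed to between 11376 and 16503 in BA mice and to 9183, 50028 and 28605 in AP replicates 1, 2 and 3. Oligodendrocyte markers (6 of 6) had overlapping ranges, 210544 to 270638 in BA and 214175 to 265075 in AP mice, and so had the endothelial markers (4 of 5), 380 to 508 and 369 to 504. Gad2, the 1 interneuron marker listed of 6, lay between 18 and 63 in BA and between 21 and 42 in AP mice, while microglia markers (7 of 7) summed to between 1334 and 2629 in BA mice and to between 3499 and 6138 in AP mice. Their part in the values of the complex I genes was not tested.

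Without AP replicate 1 the median log2 fold change of the 41 members was 0.35, 33 had a positive sign and 0 were called. Nuclear members took between 0.0812% and 0.0958% of the summed values in BA mice, 0.0816% in AP replicate 1 and 0.116% in both AP replicates 2 and 3. Of 37 nuclear genes of complexes II to V, 33 had a positive sign, with a median of 0.29 and 0 calls, and of 16 assembly factors 8 did, with a median of -0.02 and 0 calls. Ranges over those lists ran from -0.46 in Uqcrc2 to 0.86 in Atp5k and from -0.77 in Nubpl to 0.55 in Ndufaf4. The 16 listed regulators ran from -0.85 in Slirp to 1.08 in Ppargc1b, with 0 calls.

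Depth can be read for the BA vs AP table, where most low values lie on steps of 1 read. Between 3813738 and 6719780 reads per mouse stood behind it, and a member had a median of 69.9 to 188 reads, which gives a counting error of 11.96% to 7.29% for a single value. Ndufa1, the lowest, had 6.99 to 29.995 reads, an error of up to 37.8%. These errors cover counting only. The BA vs AV table shows no such steps, and how many reads stand behind its values is unknown. Whether its SDs, SEs and adjusted p cover the whole spread between mice was not tested. Its 14 calls and the 0 calls for AP mice may thus not rest on equal footing.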

How the data were processed

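Amygdala cells of single mice were sorted and sequenced in stranded paired-end libraries made from very little RNA. Per the labels, bcl2fastq 2.20, Salmon 1.2 and GRCm38.p6 were used. The authors deposited a normalized signal per gene and mouse, made by TMM normalization and a low-count filter; ARSyN batch correction is named in the methods, without saying for which table. Depth is unknown for the BA vs AV table and was read from steps of 1 read in the BA vs AP table (values under 20, tolerance 0.02 of a step), where 79.5% to 87.8% of low values lay on steps.

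Identifiers were matched to GENCODE M21 (GRCm38), with 1 and 42 unmatched. Both tables were fitted with limma 3.58.1 (R 4.3.3) on log2(value + 1), without covariates, over all genes, with Benjamini-Hochberg adjustment at 0.05. Fold changes are on that scale and understate changes of low genes. Fits were tested on simulated data. Tables and figures used Python 3.11.15, pandas 2.3.3, numpy 2.4.6 and matplotlib 3.10.9. AV replicate 2 was not used here.

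Of the lists, 1 core subunit and 1 pyramidal neuron marker enter the counts, medians and list sizes but are not reported here singly. Genes given mouse by mouse are the other core subunits, those caught by symbol only, the 6 highest and 3 lowest accessory subunits for AV mice and the 3 most extreme members each way for AP mice. Of other lists the extremes are named. Levels of Ndufa1 and members with overlapping gene models were described after their values were seen. Members and lists were chosen with earlier results of these data known. Alternatives covered the pseudocount (0.5, 5), a mean of at least 20, the variance prior, centring, scaling, the threshold (0.01), each mouse left out and a replicate block.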

Additional observations from a re-analysis of the deposited data

Results flagged for a closer look

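Of the 35 members in both tables, 3 were picked because their AV and AP mice all lay on opposite sides of the BA mean. All are accessory subunits of the membrane arm. The members' median log2 fold change was 0.72 for AV and 0.24 for AP mice. The share of all genes with this pattern is not given here. In Ndufb2 both AV mice lay above the BA mean and all 3 AP mice below it, with log2 fold changes of 0.68 (AV) and -0.17 (AP). Ndufb3 showed the same pattern, with 0.26 and -0.30, and so did Ndufb6, with 0.37 and -0.38. None of these passed the test in either table (limma adjusted p from 0.0596 to 0.832). The difference between the comparisons was not tested, since they share the BA mice and the tables were normalized separately.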

How the results depend on the processing

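Of 84 recomputed counts and medians, 66 stayed within their limits, and no median changed sign. The limit was a factor of 1.5 for a count and the SD between mice for a median, 0.046 for AV and 0.242 for AP. All 18 that moved belonged to BA vs AV. The AP limit is as large as the AP median of 0.24 and the AP count was 0 throughout, so AP results could hardly leave their limits. For BA vs AV, an adjusted p under 0.01 left 7 members called, 1 core and 5 accessory, and scaling to nuclear genes called 17 accessory subunits. Leaving out 1 mouse gave 7 to 13 members, 1 to 2 core and 5 to 10 accessory subunits, while the share of all genes called higher ran from 7.13% to 16.1% (13.6% with all mice). The members' median was 0.64 after centring each mouse on its median, 0.93 after scaling to nuclear genes and 0.63 to 0.81 with 1 mouse left out. For BA vs AP, 0 members were called under any alternative.

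Replicate numbers were also used as a block, although the labels do not say that they pair the mice. Same-numbered deviations correlated at -0.06 and -0.04 for AV and at 0.02, 0.12 and 0.08 for AP. For BA vs AP, 6 of 6 mice correlated best with their own number, a hint from the data and not from the design. For BA vs AV 0 of 5 did, but there BA replicate 2 has no partner and could not. The deviations of the 2 AV mice from their mean are also mirror images, so their matches are not independent. Nor are the 6 matches of BA vs AP, since deviations within a group sum to 0 and the same correlations were read from both sides. With the block 5 members were called for AV, 1 core and 4 accessory, and 0 for AP. Over all genes of the BA vs AV table, calls went from 2934 to 970 and the share called higher from 13.6% to 4.71%. In that table BA replicate 2 has no same-numbered AV mouse, so it does not enter the block estimates. These equal the estimates without BA replicate 2, with a members' median of 0.69 in both. The fall in calls can therefore not be read as an effect of pairing.

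For the genes chosen to be followed singly, 312 changes were recomputed. Of these, 289 kept their sign and their side of the threshold, 6 lost the call and 4 gained it, all of the latter in Ndufs8. Under the block Ndufa3, Ndufa4, Ndufb9 and Ndufv2 lost the call (limma adjusted p from 0.0522 to 0.0809), and without BA replicate 2 Ndufc1 and Ndufv2 did. The called members Ndufa2, Ndufa6, Ndufv3, Ndufa10 and Ndufa13 are not among the genes followed singly. Each of them lost its call under the block and when any 1 BA mouse was left out. Genes near 0 changed sign. Ndufa7 was at -0.017 after centring, Ndufa9 at 0.10 under the block and at 0.22 after scaling, and Ndufs5 at 0.16 after scaling. With 1 mouse left out, the ranges were -0.34 to 0.47 for Ndufa7, -0.23 to 0.23 for Ndufa9, -0.10 to 0.56 for Ndufb4c, -0.27 to 0.16 for Ndufs5, -0.0064 to 0.34 for Ndufs7, -0.33 to 0.68 for Ndufv1 and, in AP mice, -0.67 to 0.086 for Ndufs6. The cause was not tested. When an AV mouse was left out, the lone AV mouse was assumed to vary like the BA mice. Depth limits BA vs AP values to a counting error of 7.29% or more at the median member.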
